A study of Mus musculus with 4 samples.

Results

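The T cell receptor loci of mouse regulatory T cells were examined here by the accessibility of their chromatin. The antigen receptor of most T cells pairs an alpha with a beta chain, and a smaller lineage uses gamma and delta chains. Each chain gene is joined from V, J and in some loci D segments, which are spliced to a constant (C) segment: Trac for alpha, Trdc for delta, Trbc1 and Trbc2 for beta, and Trgc1 for gamma. The delta segments lie inside the alpha locus, so a V-to-J joining of alpha removes them from that chromosome. DNA between joined segments can be lost, so in a sample of many cells fewer remaining copies of a stretch and less accessible chromatin cannot be told apart.

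The regions were taken from 3 windows of the mm9 build, whatever their values: Tcra and Tcrd on chromosome 14 from 53000000 to 54900000, Tcrb on chromosome 6 from 40800000 to 41550000, and Tcrg on chromosome 13 from 19200000 to 19500000. They held 174 of the 84476 regions of the series: 83 in the Tcra/Tcrd window, 75 in the Tcrb window and 16 in the Tcrg window. ATAC-seq, in which a transposase cuts accessible DNA, was performed on CD4+ TCRβ+ regulatory T cells from spleen and lymph nodes of male NOD mice, a strain prone to autoimmune diabetes, aged 8 to 10 weeks. The cells were in the upper 50% of CD25-high staining, and 50000 went into a library. The groups were Flicr WT and Flicr KO, with 2 libraries each. Flicr is a long noncoding RNA gene beside Foxp3. The study's text gives both a single and a double sort of the cells. The sources used here do not say how Flicr was knocked out or whether the 2 libraries of a group came from separate mice. The p-values therefore cover the spread between libraries, and that spread may be technical.

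The share of reads in regions moved with the groups, while KO held both the deepest and the shallowest library. The libraries held 19514512 to 41809276 reads, of which 34.0% and 35.1% lay in regions in Flicr KO and 24.2% and 31.1% in Flicr WT. Flicr WT replicate 1 had the lowest share, and its median region stood at 1.92 RPKM (reads per kb of region, divided by library size), against 2.46 to 2.54 in the other 3 libraries. Differences are therefore also given relative to the library medians, beside each region named below whose order of the groups changed with it and for each locus as a whole. Over all 80254 regions tested, the median difference of KO from WT on the log2(RPKM + 1) scale was 0.21, and 0.07 after subtracting the library's own median from each value.

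The files name no genes, and no mm9 annotation was used here, so none of the regions could be assigned to Trac, Trdc, Trbc1, Trbc2, Trgc1 or another segment, and the defining genes of regulatory T cells could not be checked. The order of the genes was read from the RefSeq table of assembly GRCm38.p6, and the same order and direction were assumed for mm9. In that table the Tcra/Tcrd locus runs from Trav1 through the V segments, Trdc and the Traj segments to Trac. It holds 136 V and 60 Traj segments, pseudogenes included, with Trdv5 beyond Trdc. Dad1 and Abhd4 follow, which are no receptor genes. Genes that are no T cell receptor segments, among them Olfr1507, Olfr1508 and Olfr1509, also stand between Trav1 and Trav2. The Tcrb locus runs from Trbv1 to Trbc2, then Trbv31 and the receptor kinase gene Ephb6. It holds 35 V segments, Trbv31 among them, 2 D and 14 J segments, pseudogenes included. Other genes interrupt it, with 6 between Trbv1 and Trbv2 and 11, among them the trypsin genes Prss1 and Prss2, between Trbv30 and Trbd1. The Tcrg locus holds 7 V, 4 J and 4 C segments, with Trgc1 in its first cluster, and ends with Trgc4, followed by Stard3nl. Tcra/Tcrd and Tcrb thus run broadly from V to C with rising coordinates, apart from Trdv5 and Trbv31. Tcrg has no single V-to-C direction: its clusters follow one another, and Trgc2, Trgj2 and Trgv2 stand in reverse order. Positions are therefore given from the low-coordinate edge of each window, which is the V end in Tcra/Tcrd and Tcrb. The windows may hold neighbouring genes at both ends.

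The regions were spread unevenly along each locus. The last of 10 equal bins of the window, at its high-coordinate edge, held 48 of the 83 regions of Tcra/Tcrd, 14 of the 75 of Tcrb and 2 of the 16 of Tcrg. It held most of the locus reads in every library: 67.9% to 72.3% in Tcra/Tcrd, 50.5% to 56.1% in Tcrb and 61.7% to 69.9% in Tcrg. The bin also held 38291 of the 49782 bp covered by regions in Tcra/Tcrd, 26732 of 62346 in Tcrb and 1827 of 9326 in Tcrg. In Tcra/Tcrd the share of reads thus went with covered length. The RPKM of that bin, 2.24 to 2.71, was below that of the whole locus, 2.39 to 2.99, in every library. Each locus also had a long stretch with no region inside it.

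**Figure D1:**
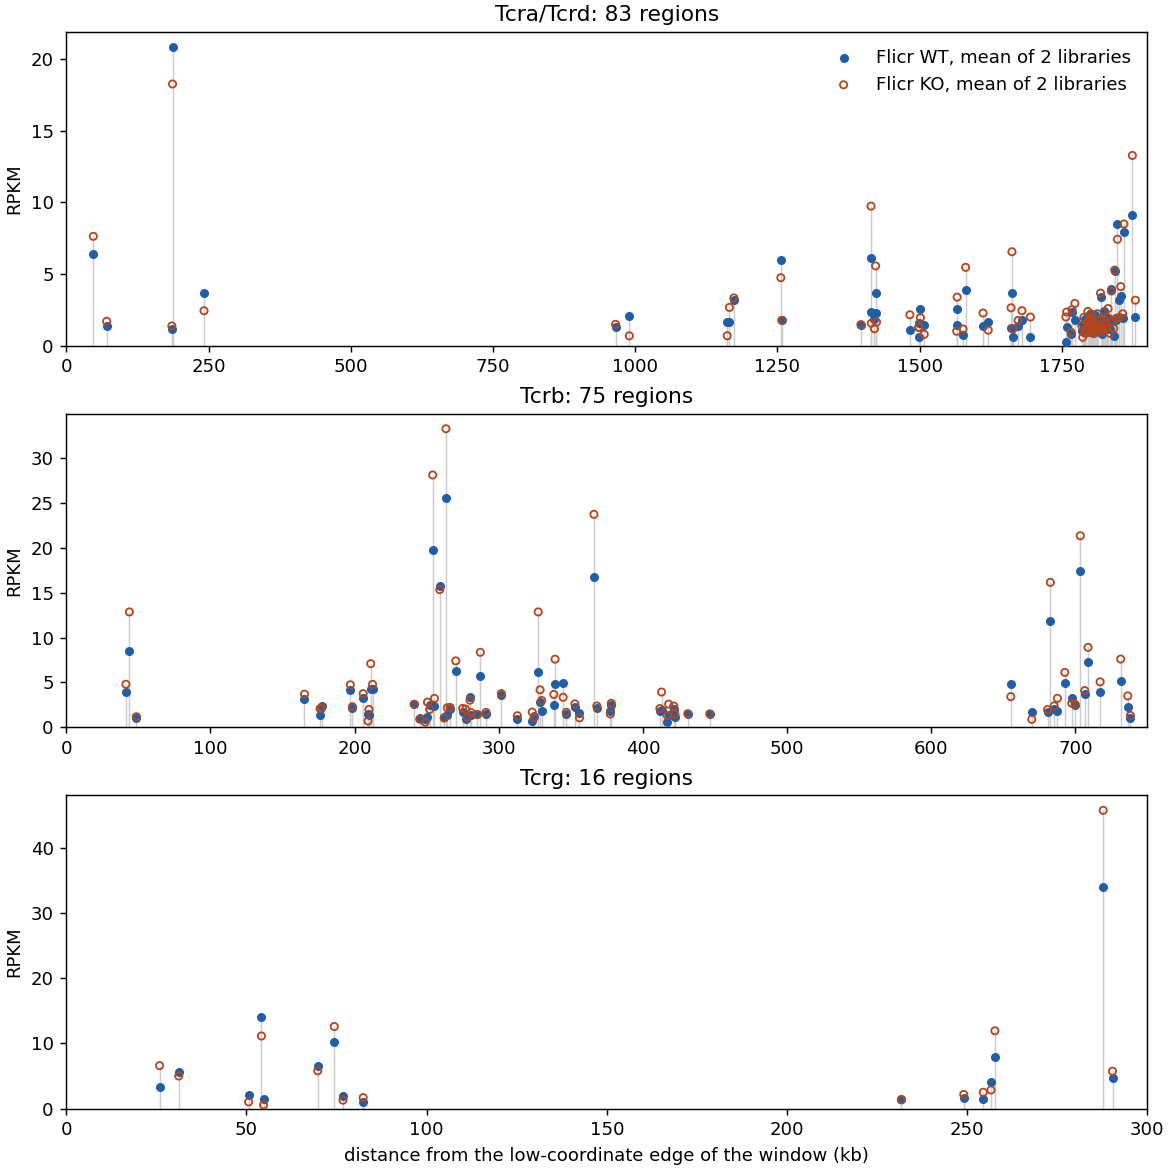
Mean RPKM of each region of the 3 windows (y axis, 2 libraries per group) against its distance from the low-coordinate edge of the window in kb (x axis). In Tcra/Tcrd most regions crowd at the right, in Tcrb a group of high regions sits between 225 and 375 kb, and in Tcrg 1 region near 288 kb is far above the rest.

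In the Tcra/Tcrd window the V-end part was sparse. Its first 5 regions lay between 53047232 and 53242273. The longest gap, 723 kb, followed them, from 53242273 to the next region at 53965339, and only 0.649% of the gaps between neighbouring regions of all chromosomes were as long. Of the V segments in the gene table, 74 carry a d or n in their name, which marks copies of one another. The sources used here do not say how reads that match several copies were placed, so low or missing values in the V part are uncertain, and a region missing from the list says only that none was called. Further gaps of 172 and 139 kb lay before 54161423 and before 54396437.

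The C end of Tcra/Tcrd was a dense run of wide but mostly weak regions. The run from 54756731 to 54879352 held 48 regions in 123 kb and covered 31.2% of its length. The median width was 459 bp in the last of the 10 bins and 251 bp in the rest, and all 13 regions of the window over 1 kb wide lay in that bin. The median level there was 1.65 RPKM, below the 2.22 RPKM of all regions of the series. In the whole window, 24 of 83 regions were above the median of all regions and 2 were in the top decile. The widest, 54829361 to 54832761, measured 3401 bp and had 1.55 and 2.25 RPKM in WT and 2.76 and 2.41 RPKM in KO.

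The highest Tcra/Tcrd region lay at the other end. It was the 561-bp region at 53186472 to 53187032, 187 kb from the low-coordinate edge, with 17.0 and 24.7 RPKM in WT and 20.4 and 16.1 RPKM in KO. It was the highest region of the window in all 4 libraries. The groups overlapped in RPKM (log2 difference −0.17, SE 0.24). Relative to the library median both KO libraries were lower, at 8.03 and 6.54 times the median against 8.86 and 10.0 in WT (centred log2 difference −0.31, limma adjusted p = 0.659). The next 2 lay at the C end. The region at 54873230 to 54874158 had 8.40 and 9.84 RPKM in WT and 13.4 and 13.1 RPKM in KO. It was higher in both KO libraries, a log2 difference of 0.50 (SE 0.25), which did not pass the test (limma adjusted p = 0.561). The region at 54858698 to 54859141 had 6.95 and 8.91 RPKM in WT and 8.53 and 8.44 RPKM in KO, which overlapped. Relative to the library median KO was the lower group there, at 3.36 and 3.43 times the median against 3.63 and 3.61 in WT, and the log2 difference turned from 0.10 to −0.04, which did not pass the test. Named after its values were seen, the 1605-bp region at 54846640 to 54848244 had 9.11 and 7.85 RPKM in WT and 7.43 and 7.41 RPKM in KO. Both KO libraries were lower there, by less than the error (log2 difference −0.17, SE 0.27).

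In Tcrb the regions formed 3 runs separated by gaps of 116 and 208 kb. The first run, of 3 regions, lay from 40840541 to 40848783. The middle run, from 40965059 to 41246551, held 56 regions and 39.9% to 44.4% of the locus reads. The last run, from 41454831 to 41538381, held 16 regions and 52.2% to 57.5% of the reads. The gene table also has 2 runs of other genes inside Tcrb, and whether the gaps are these runs was not tested. The window was the most densely filled of the 3, with 8.31% of its length covered against 2.62% in Tcra/Tcrd and 3.11% in Tcrg, and 39 of 75 regions were above the median of all regions.

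The middle run carried the sharpest Tcrb signals. The 884-bp region at 41062958 to 41063841 was highest in all 4 libraries, with 21.8 and 29.3 RPKM in WT and 34.8 and 31.7 RPKM in KO. The 524-bp region at 41053943 to 41054466 had 19.0 and 20.5 RPKM in WT and 30.0 and 26.3 RPKM in KO. The 376-bp region at 41165912 to 41166287 had 16.4 and 17.1 RPKM in WT and 24.0 and 23.5 RPKM in KO. In each of the 3, WT was the lower group with no overlap, with log2 differences of 0.38 to 0.49 (SE 0.23 each) and limma adjusted p from 0.539 to 0.625. The order held relative to the library medians, with centred differences of 0.24 to 0.35.

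The regions of the last run of Tcrb were wider, with a median of 930.5 bp against 396.5 bp in the middle run. Those over 1 kb numbered 7 of 16 in the last run and 8 of 56 in the middle run. Named after their values were seen, the 7556-bp region at 41488993 to 41496548 was the widest of the 3 windows, with 5.08 and 4.75 RPKM in WT and 6.65 and 5.56 RPKM in KO. The 3751-bp region at 41501628 to 41505378 combined width and height, with 19.1 and 15.7 RPKM in WT and 23.2 and 19.5 RPKM in KO. It held 2090 of the 8913 Tcrb reads of Flicr WT replicate 1. The next, 41507238 to 41510476, had 6.65 and 7.91 RPKM in WT and 9.61 and 8.18 RPKM in KO. None of these 3 passed the test, with log2 differences of 0.26 to 0.28 and limma adjusted p from 0.731 to 0.806. Both KO libraries were above both WT libraries in RPKM in all 3, and the groups overlapped in all 3 relative to the library medians.

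Tcrg had few regions, and 1 of them dominated. The gamma chain is not part of the alpha-beta receptor by which the cells were sorted. The first 9 regions lay between 19225773 and 19282856, a gap of 149 kb followed, and the other 7 lay between 19431607 and 19490499. The 1514-bp region at 19486998 to 19488511 had 29.9 and 38.1 RPKM in WT and 48.2 and 43.2 RPKM in KO. It held 60.4% to 67.6% of the Tcrg reads, ranked at percentile 99.6 of all regions and lay 288 kb from the low-coordinate edge of the 300-kb window. Stard3nl is the next gene after Trgc4 in the gene table, and whether this region belongs to Tcrg or to its neighbour could not be determined.

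The other Tcrg regions were lower. The region at 19253934 to 19254363 had 12.6 and 15.4 RPKM in WT and 14.2 and 8.12 RPKM in KO, and the region at 19274001 to 19274758 had 9.44 and 10.9 RPKM in WT and 14.0 and 11.2 RPKM in KO. Relative to the library median, KO was the lower group at the former, at 5.57 and 3.30 times the median against 6.58 and 6.24 in WT, and the groups overlapped at the latter. In all, 4 of the 16 were in the top decile of all regions and 7 were below the median.

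**Figure D2:**
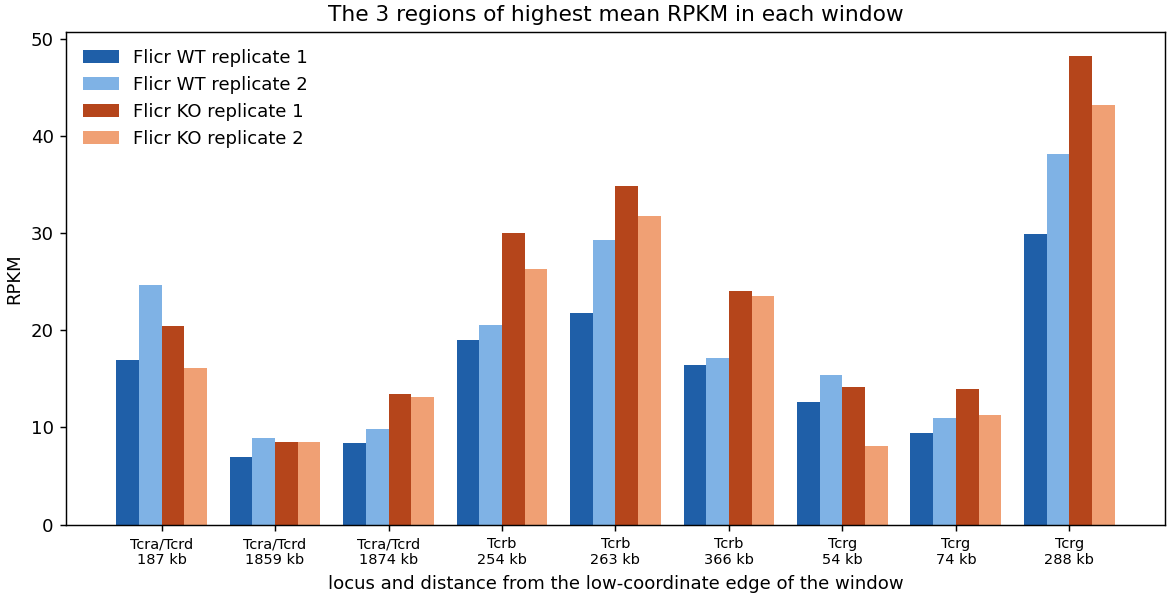
RPKM of the 3 regions of highest mean in each window (y axis) in each of the 4 libraries (bars), ordered by distance from the low-coordinate edge in kb. The Tcrg region at 288 kb is the tallest in every library, and in the 3 Tcrb regions both KO bars are above both WT bars.

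The comparison of the genotypes asked whether loss of Flicr changed accessibility at these loci. No region of the 3 windows was called. Of the tested regions, 74 in Tcra/Tcrd, 72 in Tcrb and 16 in Tcrg, 0 passed a limma adjusted p of 0.05 over all regions, where 0.0187% of all regions passed. The smallest limma adjusted p was 0.525 in Tcra/Tcrd, 0.210 in Tcrb and 0.449 in Tcrg. At an unadjusted p under 0.05, limma had 3, 6 and 2 regions of these loci higher in KO and 0 lower, against 8.22% higher and 0.842% lower among all regions. Limma voom on recovered read numbers, with either scaling, also called 0 of these. Over all 80254 regions it called 10 higher and 0 lower with library reads, and 18 higher and 10 lower with region totals. After median centring limma called 0% of all regions and 0 of these. The 12 regions not tested, 9 of Tcra/Tcrd and 3 of Tcrb, had means of 0.743 to 1.01 RPKM and fell under the filter on low values. Without Flicr WT replicate 2, which set the lone Flicr WT replicate 1 against both KO libraries, 7 regions of Tcrb, 2 of Tcrg and 1 of Tcra/Tcrd were called higher, in a fit whose spread came from the KO libraries alone. That fit called 8.82% of all regions higher.

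The Tcrb region with the smallest p was at 41127160 to 41127601, 442 bp wide and in the middle run. It had 4.81 and 7.42 RPKM in WT and 12.6 and 13.1 RPKM in KO, on 62 and 106 reads in WT and 232 and 113 reads in KO. Both KO libraries were above both WT libraries. The log2 difference was 0.99 (SE 0.27, 95% CI 0.45 to 1.53; limma adjusted p = 0.210), and 0.85 after median centring (limma adjusted p = 0.472). Among the tested regions of the 3 loci it had the smallest p in both fits.

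A few other regions of Tcrb stood apart by less. The region at 41050395 to 41050770 had 0.547 and 1.65 RPKM in WT and 2.30 and 3.28 RPKM in KO (log2 difference 0.89, SE 0.42). The regions at 40843614 to 40843927 and at 41212876 to 41213126 were higher in both KO libraries, with differences of 0.55 (SE 0.26) and 0.78 (SE 0.36). The lowest differences were −0.54 (SE 0.55) at 41009233 to 41009483 and −0.53 (SE 0.48) at 41469629 to 41470021, where both KO libraries were below both WT libraries, on 2 to 20 reads. The first region of the window, 40840541 to 40842187, and the last, 41538131 to 41538381, had differences of 0.22 (SE 0.32) and 0.16 (SE 0.49).

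In Tcra/Tcrd the largest difference rested on few reads. The region at 54756731 to 54756981, the first of the C-end run, had 2 reads in each WT library and 16 and 12 in the KO libraries. Per library read, KO was at 7.04 times WT, with a 95% exact interval of 2.46 to 27.6 if each read is counted. If mates are counted as 1 fragment, 14 in KO against 2 in WT, the interval is 1.62 to 63.8. Both intervals pool the libraries of a group and leave out the spread between them. The region was also picked for the size of its difference, so neither interval is a test. The log2 difference was 1.23 (SE 0.58, limma adjusted p = 0.536). The regions at 54414148 to 54414546 and 54661825 to 54662200 were also higher in both KO libraries, by 0.58 (SE 0.27) and 0.68 (SE 0.31), and that at 54694406 to 54694656 had a difference of 0.79 (SE 0.53) with overlapping groups. The lowest differences were −0.84 (SE 0.51) at 53989398 to 53989648 and −0.73 (SE 0.46) at 54807880 to 54808256. The groups overlapped at both in RPKM, and both KO libraries were below both WT libraries relative to the library medians. At the window's ends, 53047232 to 53047741 was at 0.23 (SE 0.28) and 54878623 to 54879352 at 0.48 (SE 0.37).

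In Tcrg the first region, 19225773 to 19226023, had 2.74 and 3.95 RPKM in WT and 7.46 and 5.74 RPKM in KO, a difference of 0.81 (SE 0.31, limma adjusted p = 0.449). The region at 19457547 to 19457859 was higher in both KO libraries by 0.53 (SE 0.26). Between them both signs occurred. The 4 regions from 19231049 to 19254888 all had negative differences, the lowest −0.69 (SE 0.44) at 19250453 to 19250768. Next to it in size, the region at 19231049 to 19231361 had 5.48 and 5.64 RPKM in WT and 9.05 and 0.985 RPKM in KO, a difference of −0.55 (SE 0.50), with Flicr KO replicate 1 the highest library and Flicr KO replicate 2 the lowest, on 6 reads. The dominant region at 19486998 was at 0.42 (SE 0.22), and the last, 19490187 to 19490499, at 0.28 (SE 0.31).

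Counts over the regions were set beside those over all regions. KO exceeded WT in every pair of libraries in 27 of 72 Tcrb regions, 13 of 74 Tcra/Tcrd regions and 6 of 16 Tcrg regions, where 33.2% of all tested regions did. KO was below WT in every pair in 3, 5 and 2, where 7.81% did so. Relative to the library medians, KO lay above WT in 19, 12 and 4 regions, in the same order, and below in 6, 19 and 3, against 23.5% and 13.8% of all regions. The median log2 difference was 0.17 in Tcrb, 0.06 in Tcra/Tcrd and 0.05 in Tcrg, against 0.21 over all regions. After centring these were 0.03, −0.08 and −0.09, against 0.07. Differences were above 0 in 80.6% of the Tcrb, 58.1% of the Tcra/Tcrd and 50.0% of the Tcrg regions, against 71.0% of all. After centring the shares were 59.7%, 39.2% and 50.0%, against 58.0% of all, so that most Tcra/Tcrd regions were then below 0. Whether the loci differ from other regions was not tested.

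**Figure D3:**
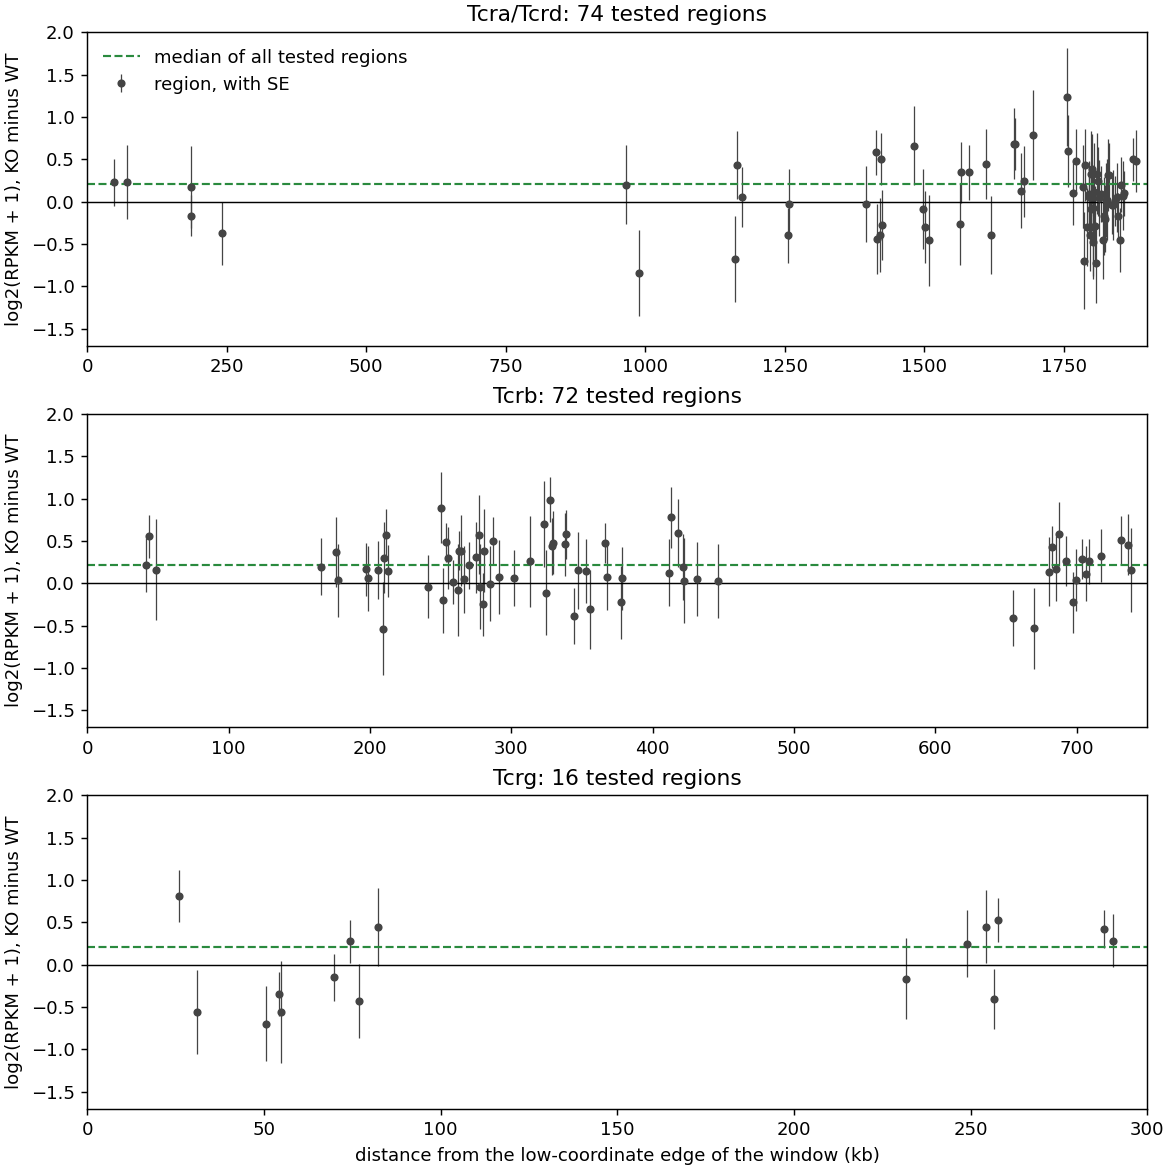
Difference of KO from WT on the log2(RPKM + 1) scale (y axis, bars show the SE from limma) for the tested regions, against the distance from the low-coordinate edge in kb (x axis). The solid line is 0 and the dashed line the median of all tested regions, 0.21; points scatter on both sides of the lines in each locus.

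Summed over its regions, each locus was compared as 1 value a library, the locus RPKM. Tcrb stood at 4.90 and 5.22 in WT and 6.70 and 5.82 in KO, that is 5.06 ± 0.230 and 6.26 ± 0.627 (SD, n = 2 each). Tcrg stood at 8.05 and 9.84 in WT and 12.1 and 10.4 in KO, that is 8.95 ± 1.27 and 11.2 ± 1.19 (SD, n = 2 each). In both loci the KO libraries were above the WT libraries, with an exact two-sided permutation p of 0.333, the smallest that this design allows. Without the dominant region, the log2 ratio of the KO to the WT mean in Tcrg was 0.15, against 0.33 with it. Tcra/Tcrd stood at 2.39 and 2.99 in WT and 2.98 and 2.73 in KO, which overlapped (exact permutation p = 1).

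Relative to the median of each library the picture changed. Tcra/Tcrd was then lower in both KO libraries, at 1.17 and 1.11 times the median against 1.25 and 1.21 in WT. The log2 ratio of the means turned from 0.09 to −0.11, and to −0.24 when scaled to the reads in regions. The smallest possible exact permutation p, 0.333, applied again. Tcrb overlapped, with 2.56 and 2.12 in WT and 2.64 and 2.36 in KO. Tcrg kept KO above WT by a small margin, with 4.20 and 3.99 in WT and 4.74 and 4.21 in KO. Scaled to the reads in regions, the log2 ratio was −0.03 in Tcrb and 0.00062 in Tcrg. The share of reads in regions, higher in both KO libraries, moved with the RPKM of Tcrb and Tcrg, and its part in the result was not tested.

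**Figure D4:**
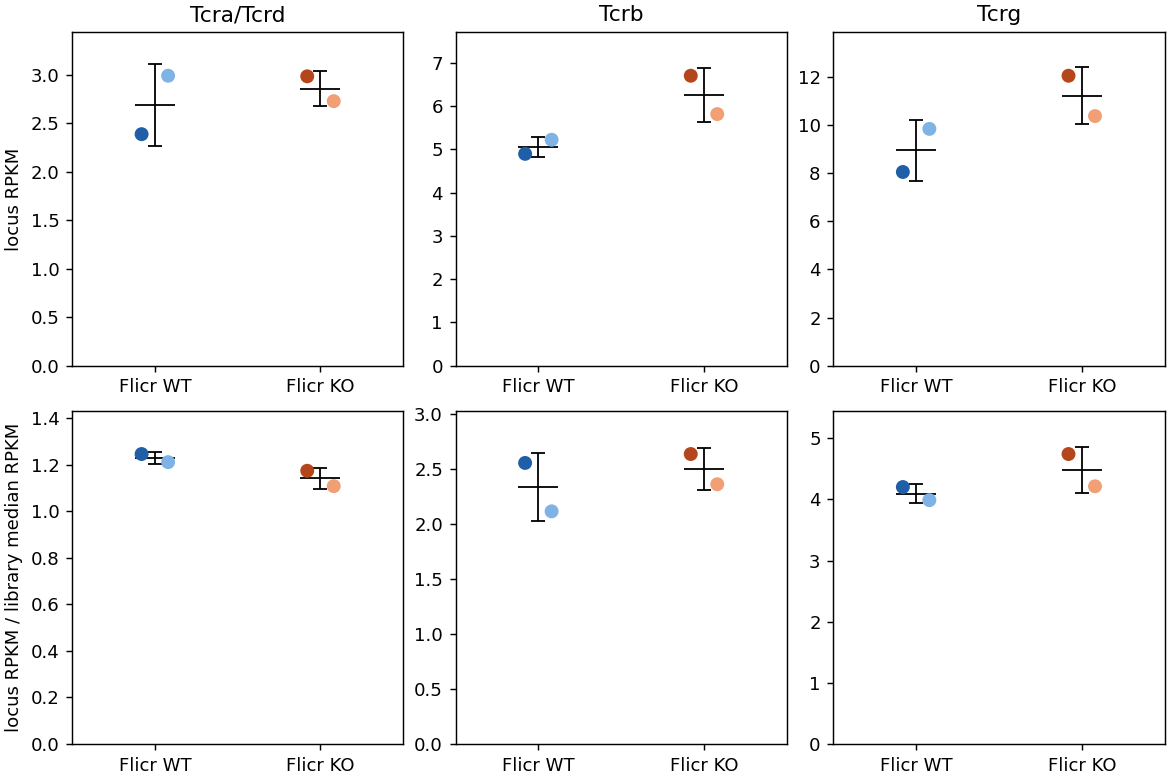
Locus RPKM (top row) and locus RPKM divided by the median region RPKM of the library (bottom row) for each locus. Points are libraries, with replicate 1 in the darker shade, and bars show mean and SD (n = 2). Tcra/Tcrd overlaps in the top row and is lower in both KO libraries in the bottom row.

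Shares within a locus do not depend on the scaling of the libraries. Whether they moved with the share of reads in regions, higher in both KO libraries, was not tested. The share of locus reads in the last bin was 70.9% ± 1.66 in WT and 70.1% ± 3.10 in KO for Tcra/Tcrd, and 53.3% ± 3.95 in WT and 53.2% ± 0.0495 in KO for Tcrb (SD, n = 2 each), and the groups overlapped (exact permutation p = 1 for both). In Tcrg it was 61.7% and 65.1% in WT and 66.3% and 69.9% in KO, higher in both KO libraries (exact permutation p = 0.333). This share was almost all the dominant region, and without it the difference of KO from WT fell from 4.72 to 0.754 percentage points.

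The mean position of the reads lay 1557 ± 31.9 kb from the low-coordinate edge in WT and 1577 ± 19.8 kb in KO for Tcra/Tcrd, and 502 ± 17.8 kb in WT and 499.7 ± 0.788 kb in KO for Tcrb (SD, n = 2 each), with overlap in both. In Tcrg it was 223 and 227 kb in WT and 231 and 241 kb in KO, at higher coordinates in both KO libraries (exact permutation p = 0.333). Without the dominant region this difference was 9.74 kb, against 10.8 kb with it.

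The share of locus reads did not overlap between the groups in 7 of the 20 bins that held regions, with KO higher in 4 and lower in 3, and these were not tested. With 2 libraries in each group, a fraction of 0.333 of the possible labellings separates the groups. About this share of bins would do so by label order alone. KO was higher in bins 8 and 9 of Tcra/Tcrd and 1 and 10 of Tcrg, and lower in bin 9 of Tcrb and bins 2 and 3 of Tcrg. Of these, 2 are described further, picked after their values were seen. In Tcra/Tcrd, the 12 regions from 54564860 to 54694656, just ahead of the C-end run, held 5.14% and 4.84% of the locus reads in WT and 7.83% and 6.16% in KO. Of the 10 tested, 8 had a difference above 0, 3 had both KO libraries above both WT libraries, and none was called, against 71.0% above 0 and 33.2% with KO above among all regions. In Tcrg, the 4 regions of bin 2 held 10.6% and 10.5% in WT and 8.23% and 4.56% in KO, the lower of these in the shallowest library.

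**Figure D5:**
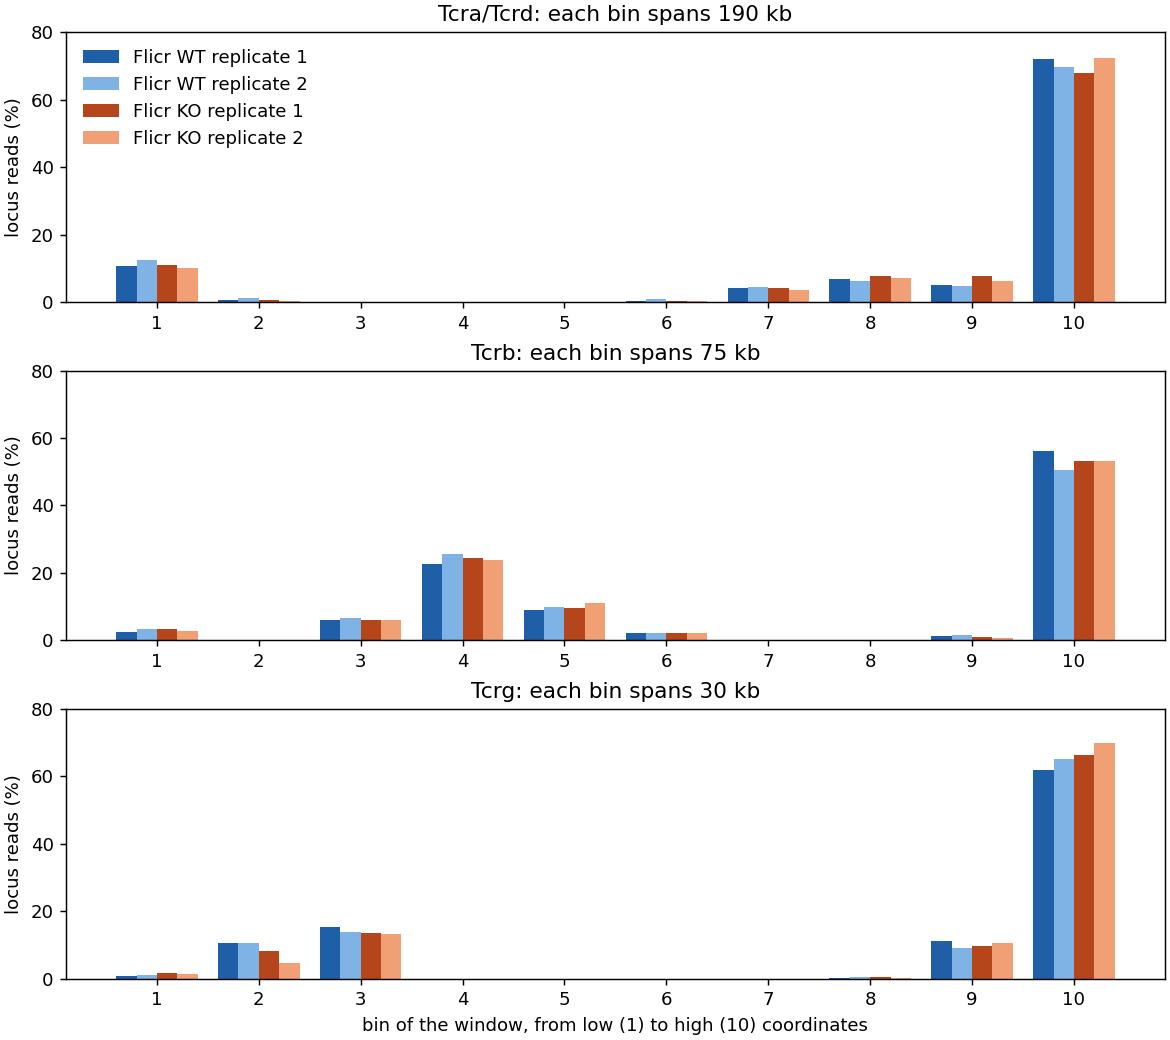
Share of locus reads (y axis, percent) in each of 10 equal bins of the window from low (1) to high (10) coordinates, with 1 bar a library. The last bin holds the most reads in each locus and library, and bins 3 to 5 of Tcra/Tcrd, 2, 7 and 8 of Tcrb and 4 to 7 of Tcrg hold no region.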

How the data were processed

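ATAC-seq was measured in 2 Flicr WT and 2 Flicr KO libraries, sequenced paired-end with a 75-bp kit per the labels' protocols. Tools listed without roles, per the submitters' processing notes, were HOMER 4.6, Picard 1.130, DiffBind, SAMtools and Bowtie2, with build mm9; read shifting, duplicates, multiply mapped reads and region calling are not given in the sources used here. The authors deposited RPKM for the same regions in each library, per the file headers. RPKM times the region's length gave whole reads for 100% of the values (tolerance 0.001), so library totals and reads were recovered. The lowest value is 1 read, and 78.8% to 85.5% of the numbers are even, so reads are not independent molecules.

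The main test was limma 3.58.1 (R 4.3.3, trend and robust) on log2(RPKM + 1), over the 80254 regions with a mean of at least 1.01 RPKM, the 5th percentile, with Benjamini-Hochberg adjustment over all of them and a threshold of 0.05. This scale understates the change of low regions. A locus RPKM is the sum of reads over the summed length of its regions; locus values were compared by exact permutation tests (scipy 1.17.1). Centring subtracts each library's median log2(RPKM + 1) over all regions. The fit was run on simulated data in which every library had the same share of reads in regions. It therefore did not cover the shift of that share between the groups.

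The windows and tests were chosen with earlier results of these data known. Named regions are, per window, the first and last, the 3 of highest mean, the 3 of smallest p and the 2 with the largest differences each way; others are said to be named after their values were seen. Lists of cell type and signalling genes could not be used without gene names. Alternatives covered scaling, pseudocount, filter, test, left-out libraries and the replicate block. Coordinates are of mm9 and count from 1.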

Additional observations from a re-analysis of the deposited data

How the results depend on the processing

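No region of the 3 loci was called under any scaling, pseudocount, filter, threshold or test that kept all 4 libraries. Over all regions, 0 were called with median centring, quantile normalization, scaling to region reads, or limma without trend and robust. The other settings that kept all 4 libraries called 10 to 42 of all regions. The 0 calls in these loci therefore say little about them. Leaving out 1 library gave 0 to 1 calls in Tcra/Tcrd, 0 to 7 in Tcrb and 0 to 2 in Tcrg, all without Flicr WT replicate 2, where 8.82% of all regions were called higher. The median log2 difference of Tcra/Tcrd, 0.06, became −0.084 (median centring), −0.11 (quantile), −0.16 (region reads) and −0.22 (voom, region totals), and −0.089 to 0.16 without a library. That of Tcrb, 0.17, became 0.030, −0.018, −0.061 and −0.0091 under the same settings, 0.28 with voom on library reads, and 0.15 to 0.36 without a library. That of Tcrg, 0.05, became −0.089, −0.12, −0.18 and −0.19 under those 4 settings and −0.12 to 0.34 without a library. These scalings remove a common shift by construction. The log2 ratio of the locus level, 0.09, 0.31 and 0.33 in Tcra/Tcrd, Tcrb and Tcrg, became −0.11, 0.098 and 0.13 over the library median and −0.24, −0.030 and 0.00062 scaled to region reads, 0.19 in Tcrb as a median over regions, and −0.07 to 0.26, 0.20 to 0.41 and 0.19 to 0.48 without a library. The share of Tcrg reads in the last of 10 bins differed by 4.72 percentage points, 0.754 without the highest region and 2.96 to 6.49 without a library; its mean position differed by 10.8 kb (5.73 to 15.9 without a library, 9.74 without the highest region). Without the highest region, the log2 ratio of the locus level was 0.11, 0.30 and 0.15 in Tcra/Tcrd, Tcrb and Tcrg. The cause was not tested. Of 440 alternative values for 30 named regions, 411 kept their sign and stayed uncalled, 21 changed sign, none of them called, and 8 were called, all without Flicr WT replicate 2. The labels do not say whether libraries of the same replicate number belong together. The correlation of their deviations, after centring on the library medians, was 0.00307. Centring removes any shift common to a whole library, so this value cannot decide the question. The replicate block left 0 regions called in each locus and the locus ratios at 0.095, 0.30 and 0.33. Over all regions it called 42, against 15 without it. Regions at 3 reads or fewer in some library, 15 of Tcra/Tcrd, 6 of Tcrb and 2 of Tcrg, limit what depth can show there.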
